A study of Mus musculus with 16 samples.

Results

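The 9 non-clustered protocadherins described here are adhesion genes of the mouse, and their levels were followed across the cell classes of the prefrontal cortex (PFC) and across 4 groups of mice. They were chosen by name from the deposited table, and Pcdh1, Pcdh7, Pcdh8, Pcdh9, Pcdh10, Pcdh15, Pcdh17, Pcdh19 and Pcdh20 were all present, as 9 of its 19999 genes. The measurement was single-nucleus RNA-Seq (snRNA-Seq) of the PFC of 16 male mice aged 22 weeks, where unique molecular identifiers (UMIs) were counted for each gene in each nucleus. The 4 groups held 4 mice each: WT control mice, WT mice given alcohol vapor (WT alcohol mice), 3xTg-AD control mice, and 3xTg-AD mice given alcohol vapor (3xTg-AD alcohol mice). The WT mice are B6;129, and 3xTg-AD mice, kept on that background, carry human amyloid precursor protein and tau transgenes under a neuronal promoter together with a mutant presenilin knock-in. Vapor was given intermittently and repeated over weeks after an injection of ethanol, and every group received pyrazole, an inhibitor of alcohol dehydrogenase, the control groups with saline and air. The transgenes were not checked here. The comparisons ask how the protocadherins differed with genotype, with alcohol and with both.

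Protocadherins are transmembrane proteins with repeated cadherin domains, and the non-clustered ones are spread over the genome, unlike the clustered families whose exons are chosen in single neurons. The delta-1 subgroup (Pcdh1, Pcdh7 and Pcdh9) has a tail that can bind protein phosphatase 1, and tails of the delta-2 subgroup (Pcdh8, Pcdh10, Pcdh17 and Pcdh19) can recruit the WAVE complex, which drives actin branching. In cortex they are known for marking layers and cell types and for acting in axon growth and at synapses. Pcdh15 and Pcdh20 stand outside these subgroups.

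The 16 mice gave 114512 nuclei, between 4955 and 9096 per mouse, with 9622031 to 17544364 UMIs per mouse and a median of 1313 to 2175 UMIs per nucleus. Of the barcodes, 1694 occurred in more than 1 mouse, in 3400 nuclei. Nuclei were clustered without the use of any protocadherin or cadherin gene, and the clusters were named from marker genes. The resulting cell classes carry names ending in -like, or that of a leading gene, and can differ from the cell types of the study. There were 20 classes with enough nuclei, of which 9 were glutamatergic, 5 GABAergic and 6 non-neuronal. Among the named classes all fixed markers were higher than in the mean of the other classes except Parm1 in L5 IT-like and Stac in L5/6 NP-like nuclei. A further 32734 nuclei (28.6%) of mixed markers and 10586 unnamed nuclei (9.24%) entered no class. The mixed ones were set apart by Slc17a7 of glutamatergic and Gad1 of GABAergic neurons, both raised. They are called mixed nuclei with few UMIs, although no limit on UMIs was set. Their median was 823 UMIs, against 769 in microglia-like and 870 in oligodendrocyte-like nuclei. In 3 mice (WT control mice 26 and 27 and 3xTg-AD control mouse 12) the ribosomal RNA-associated transcript Gm42418 took at least 17914 CPM, counts scaled to the library total, against at most 4249 in the other 13. Values without them are also given for the member calls and for most medians of 3xTg-AD alcohol versus WT control mice. Most other values include all mice. Over all nuclei Pcdh19 was at 20.1 and 31.7 CPM in WT control mice 26 and 27, against 46.2 and 52.1 CPM in the other WT control mice. WT control mouse 27 also stood apart in its interneurons: 1200 of its 1304 GABAergic nuclei (92%) were unnamed, against 14.6% to 41.6% in the other 15 mice, which left it 10 Sst-like, 5 Lamp5-like and 2 Vip-like nuclei. Clusters drawn mostly from 1 mouse were not named, even where their markers were raised. Of 927 nuclei in a cluster with 5 of 5 Meis2 interneuron markers raised, 76.7% came from mouse 27. All 114 nuclei of a cluster with 5 of 5 Lamp5 markers raised came from it too. Mouse 27 therefore enters no Lamp5-like or Vip-like value, its other interneuron values rest on 10 to 70 nuclei a class, and the part of this in the interneuron levels was not tested.

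The genes lie on several chromosomes (mouse build GRCm38, GENCODE annotation). Of the delta-1 genes, Pcdh7 is at chr5:57717967-58133230 on the plus strand, and Pcdh9 at chr14:93013410-93890679 on the minus strand. Of the delta-2 genes, Pcdh8 is at chr14:79766775-79771312 (minus), Pcdh10 at chr3:45378398-45435623 (plus), Pcdh17 at chr14:84443563-84539002 (plus) and Pcdh19 at chrX:133582860-133688987 (minus). Pcdh15 is at chr10:73099342-74649737 (plus) and Pcdh20 at chr14:88464743-88471396 (minus). Pcdh1 spans 26.1 kb. Thus 4 of the 9 lie on chromosome 14. The span runs from 4.5 kb for Pcdh8, all of it exonic in the annotation, to 1550.4 kb for Pcdh15, of which 1.53% is exonic. Nuclear RNA holds unspliced transcripts, and whether intronic reads were counted is not given in the sources used here, so levels were compared within a gene and not between genes. On the other strand, 2010320O07Rik overlaps Pcdh1, 4932441J04Rik Pcdh7, Gm9748 Pcdh8, 1700027H10Rik Pcdh10, Gm15398 Pcdh15 and 9630013A20Rik Pcdh17, and all are counted in the table. Gm15397, also counted, overlaps Pcdh15 on the same strand, and how the authors' counting split their reads is not given in the sources used here, so values of Pcdh15 are uncertain to that extent.

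Promoter windows of RefSeq (GRCm38.p6, 250 bases before to 50 after the annotated start) were found for 8 of the members. They are printed for Pcdh17 and Pcdh7, whose levels passed the test between groups, and for Pcdh15, which had the widest range over cell classes, and Pcdh8, whose highest levels were in interneurons. All are written 5′ to 3′ on the gene's strand. Capitals mark the letters TATAAA (the TATA box), GGGCGG (the GC box) and CTCGAG, each read on both strands. The other letters searched, also on both strands, were CACGTG, TGACGTCA and the MEF2 motif with any base at its 4 middle positions. No matches overlap in the windows shown.
Pcdh17: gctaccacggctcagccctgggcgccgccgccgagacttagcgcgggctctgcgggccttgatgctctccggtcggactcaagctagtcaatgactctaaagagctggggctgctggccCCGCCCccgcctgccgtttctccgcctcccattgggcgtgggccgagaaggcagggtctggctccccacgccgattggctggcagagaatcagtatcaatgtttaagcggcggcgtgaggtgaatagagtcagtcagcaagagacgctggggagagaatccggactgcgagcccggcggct
Pcdh7: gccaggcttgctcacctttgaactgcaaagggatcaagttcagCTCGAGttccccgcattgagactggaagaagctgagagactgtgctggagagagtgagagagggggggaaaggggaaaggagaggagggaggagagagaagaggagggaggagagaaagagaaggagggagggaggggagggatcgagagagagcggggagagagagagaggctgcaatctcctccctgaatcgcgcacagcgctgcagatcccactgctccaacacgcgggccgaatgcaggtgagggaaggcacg
Pcdh15: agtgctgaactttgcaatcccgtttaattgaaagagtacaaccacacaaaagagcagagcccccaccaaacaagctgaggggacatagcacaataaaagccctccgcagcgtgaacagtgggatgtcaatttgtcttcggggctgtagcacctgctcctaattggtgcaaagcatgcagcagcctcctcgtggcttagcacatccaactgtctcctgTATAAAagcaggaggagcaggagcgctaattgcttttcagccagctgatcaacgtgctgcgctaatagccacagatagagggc
Pcdh8: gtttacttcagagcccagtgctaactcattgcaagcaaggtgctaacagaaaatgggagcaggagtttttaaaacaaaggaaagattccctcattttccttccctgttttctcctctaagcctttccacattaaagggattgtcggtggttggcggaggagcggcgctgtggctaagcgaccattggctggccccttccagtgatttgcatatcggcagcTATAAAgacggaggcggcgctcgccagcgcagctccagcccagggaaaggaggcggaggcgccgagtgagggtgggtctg
Pcdh17 (chr14:84443313-84443612, plus strand) holds 1 GC box, read on the minus strand. Pcdh7 (chr5:57717831-57718130, plus strand) holds neither box and 1 CTCGAG. Pcdh15 (chr10:73821617-73821916, plus strand) and Pcdh8 (chr14:79771263-79771562, minus strand) each hold 1 TATA box, which starts 33 and 30 bases before the start site. The RefSeq start of Pcdh15 lies inside the longer span that GENCODE gives. Of the 32851 RefSeq promoters of this length, 13.6% held TATAAA, 35.7% GGGCGG, 7.15% CACGTG, 1.79% TGACGTCA, 3.69% the MEF2 motif and 3.92% CTCGAG. Beyond those shown, GGGCGG was present in Pcdh10 and Pcdh19, and none of the 6 was present in Pcdh9 or Pcdh20. A match is a stretch of letters and was not tested as a binding site.

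Levels of the protocadherins over cell classes differed most for Pcdh15, Pcdh20 and Pcdh8. Between the class with the highest mean and the class with the lowest, Pcdh15 differed 166.5-fold, Pcdh20 35.7-fold and Pcdh8 18.1-fold, while Pcdh1 and Pcdh10 differed 3.19-fold and 3.21-fold. The lowest means of Pcdh15 and Pcdh20 were only 2.94 and 1.58 CPM, so these folds are coarse. Levels are CPM, from counts summed per mouse and class, given as mean ± SD over the mice with at least 10 nuclei of the class (n = 16 unless another n is given). Neighbours in each member's order of mean levels were compared with an exact two-sided sign-flip permutation test over mice on log2(CPM + 1), with Benjamini-Hochberg adjustment over 171 neighbour pairs, and 15 pairs passed. For most neighbours the order therefore cannot be told from the spread between mice. The pairs were set by the same levels that the test then compared, so a step that passed was not tested on independent data.

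**Figure D1:**
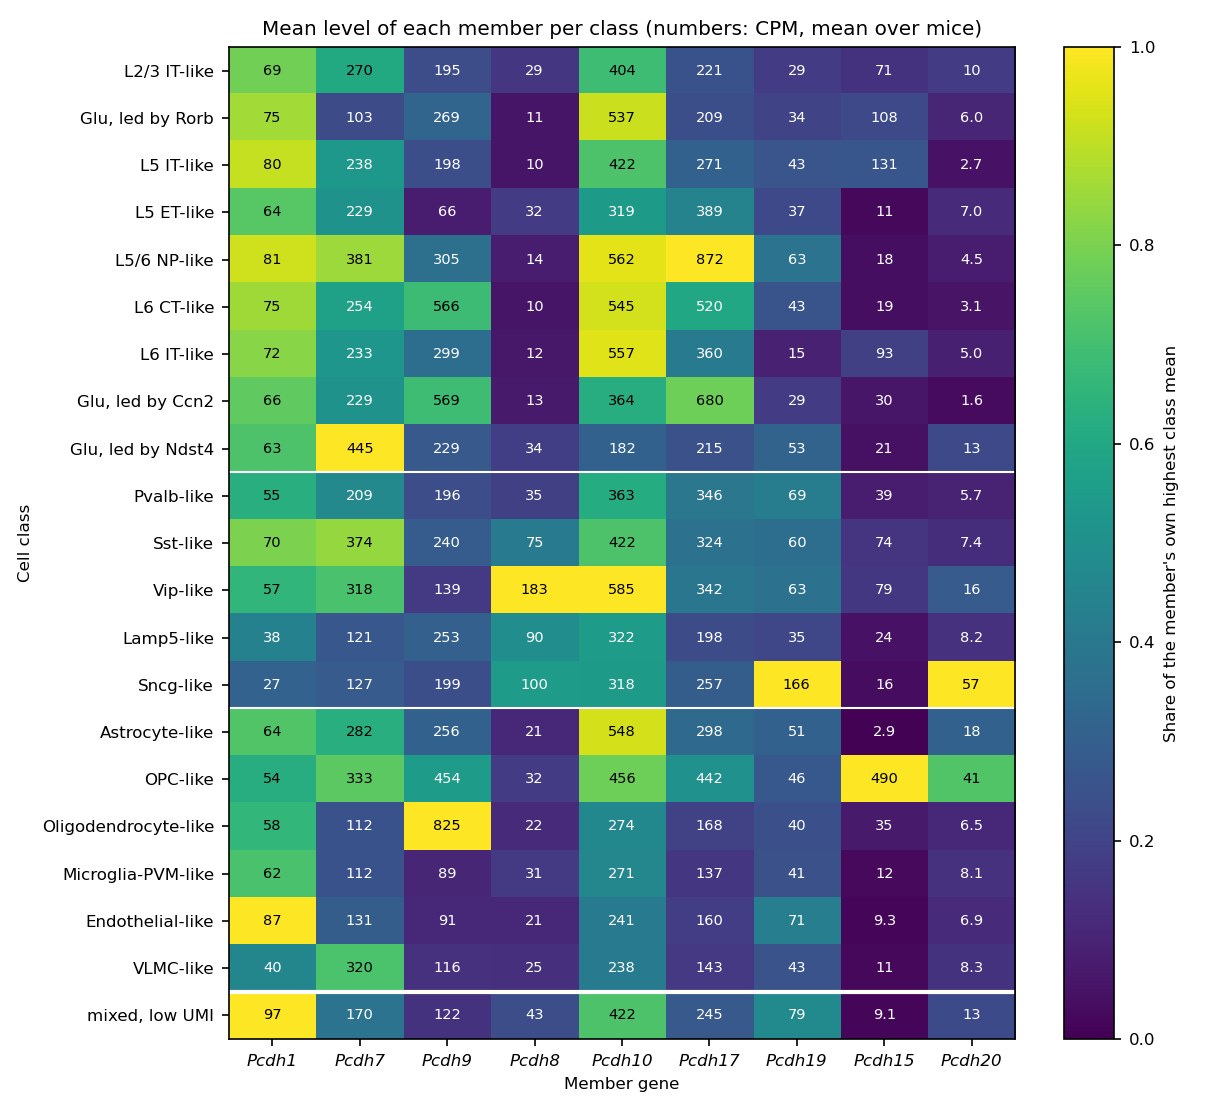
Mean CPM over mice of each protocadherin (columns) in the 20 cell classes and the mixed nuclei with few UMIs (rows; glutamatergic, GABAergic and non-neuronal classes in blocks), with the colour showing the share of the gene's own highest class mean. Pcdh15 stands out in OPC-like nuclei (490 CPM), Pcdh17 in L5/6 NP-like nuclei (872 CPM) and Pcdh9 in oligodendrocyte-like nuclei (825 CPM).

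Of the delta-1 genes, Pcdh9, an adhesion protein needed for normal recognition memory in mice, was highest in oligodendrocyte-like nuclei, although with classes set from the marker counts of single nuclei its highest class was L6 CT-like. Its level in oligodendrocyte-like nuclei was 825 ± 189 CPM, against 569 ± 109 CPM (n = 14) in glutamatergic nuclei led by Ccn2 and 566 ± 99.3 CPM in L6 CT-like (corticothalamic) nuclei. The step from the first to the second was 0.49 on the log2 scale, in 12 of 14 mice (exact sign-flip permutation test, adjusted p = 0.00759). In every mouse oligodendrocyte-like nuclei were above 18 of the 19 other classes, the exception being the Ccn2-led nuclei. Among glutamatergic nuclei Pcdh9 was lowest in L5 ET-like (extratelencephalic) ones, at 66 ± 24 CPM, the lowest of all 20 classes.

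Pcdh7, which binds protein phosphatase 1 through its tail, had no class that led in every mouse. Its highest mean was in glutamatergic nuclei led by Ndst4 (445 ± 172 CPM), where single mice ranged from 27.1 to 732 CPM. L5/6 NP-like (near-projecting) nuclei followed at 381 ± 135 CPM and Sst-like interneurons at 374 ± 107 CPM, and neighbours among these 3 did not differ beyond their spread. The only neighbour step of Pcdh7 that passed lay further down, from Pvalb-like to Sncg-like interneurons (0.71 on the log2 scale, exact sign-flip permutation test, adjusted p = 0.00759).

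Pcdh1, an adhesion protein also known from airway epithelium, was the most even member. Its means ran from 87.3 ± 32.2 CPM in endothelial-like nuclei to 27.4 ± 22 CPM in Sncg-like nuclei, and none of its 19 neighbour pairs passed the test. The mixed nuclei with few UMIs had 97.4 ± 13.9 CPM, above the mean of every class. Endothelial-like nuclei were above none of the 19 other classes in every mouse.

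Of the delta-2 genes, Pcdh17, which acts in collective axon extension and presynaptic assembly, had its 3 highest means in glutamatergic classes. It was highest in L5/6 NP-like nuclei (872 ± 132 CPM), above all 19 other classes in every mouse that had both. The Ccn2-led glutamatergic nuclei (680 ± 139 CPM, n = 14) and L6 CT-like nuclei (520 ± 127 CPM) came next. Both steps passed the test, at 0.41 (adjusted p = 0.00348) and 0.38 (adjusted p = 0.00464) on the log2 scale (exact sign-flip permutation test). OPC-like nuclei had 442 ± 80.4 CPM. Among glutamatergic classes, L5 ET-like nuclei had 389 ± 92.7 CPM, L6 IT-like (intratelencephalic) 360 ± 86.4, L5 IT-like 271 ± 74.4 and L2/3 IT-like 221 ± 62.6 CPM.

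Pcdh10, an axon growth gene that also acts in the elimination of synapses, was broadly present. Vip-like interneurons (585 ± 108 CPM, n = 15), L5/6 NP-like (562 ± 113), L6 IT-like (557 ± 66.9) and astrocyte-like nuclei (548 ± 49.8) had the highest means, and neighbours among them did not differ beyond their spread. Its single neighbour step that passed was from Rorb-led glutamatergic nuclei (537 ± 68.6 CPM) to OPC-like nuclei (456 ± 67.5 CPM), at 0.24 on the log2 scale (exact sign-flip permutation test, adjusted p = 0.013).

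Pcdh8, also called arcadlin, is induced by neuronal activity and takes N-cadherin off the synaptic surface, and its 4 highest means were those of GABAergic classes. Vip-like nuclei led with 183 ± 38.5 CPM (n = 15), ahead of Sncg-like (101 ± 54.9), Lamp5-like (89.7 ± 33.8, n = 15) and Sst-like nuclei (75.4 ± 35.3 CPM). Both the step from Vip-like to Sncg-like (0.97 on the log2 scale, 14 of 15 mice, adjusted p = 0.00391) and that from Sst-like to Pvalb-like (1.11, 15 of 16 mice, adjusted p = 0.00313) passed in the exact sign-flip permutation test. Pvalb-like interneurons, at 34.6 ± 17.4 CPM, were thus apart from the other GABAergic classes. In L6 CT-like nuclei Pcdh8 was at 10.2 ± 3.63 CPM, its lowest mean.

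Pcdh19, the X-linked gene of an epilepsy that mostly affects girls, was highest in Sncg-like interneurons. There it reached 166 ± 62.2 CPM, against 71.2 ± 25.6 CPM in endothelial-like nuclei, a step of 1.15 on the log2 scale in 15 of 16 mice (exact sign-flip permutation test, adjusted p = 0.00963). The exception was WT control mouse 26, with 20.6 CPM from 1 UMI. With classes set from marker counts its highest class was endothelial-like. Among neurons it was lowest in L6 IT-like nuclei (15.2 ± 6.57 CPM).

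Pcdh15, a part of the tip link of inner ear hair cells that is also known as a gene of oligodendrocyte precursors, had the widest range over classes. In OPC-like nuclei it was at 490 ± 73.1 CPM and between 392 and 689 CPM in single mice, above all 19 other classes in every mouse. L5 IT-like nuclei followed at 131 ± 26.9 CPM, a step of 1.92 on the log2 scale in 16 of 16 mice. Rorb-led glutamatergic nuclei stood at 108 ± 20.8 CPM, 0.27 lower on the log2 scale, again in 16 of 16 mice. For both steps the adjusted p of the exact sign-flip permutation test was 0.00261, from the smallest unadjusted p that 16 mice allow (3.05e-05). Pcdh15 thus split the glutamatergic classes: L6 IT-like (93.4 ± 26.9) and L2/3 IT-like nuclei (71.1 ± 19.7 CPM) were above L6 CT-like (18.8 ± 7.57), L5/6 NP-like (18 ± 11.1) and L5 ET-like ones (11.4 ± 5.57 CPM). Astrocyte-like nuclei had the lowest mean of all, 2.94 ± 2.66 CPM.

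Pcdh20 was the sparsest member, with 1304 UMIs in the 20 classes. Sncg-like interneurons (56.6 ± 27 CPM) and OPC-like nuclei (41.1 ± 14.7 CPM) had the highest means and did not differ beyond their spread, and OPC-like nuclei were above astrocyte-like ones (17.6 ± 3.82 CPM) by 1.11 on the log2 scale (14 of 16 mice, exact sign-flip permutation test, adjusted p = 0.00391). In Sncg-like nuclei a mouse held between 0 and 10 UMIs of Pcdh20, so single values there are coarse. With classes set from marker counts OPC-like nuclei were the highest.

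Free RNA in droplets can add neuronal transcripts to non-neuronal nuclei. Slc17a7, the glutamate transporter gene of excitatory neurons, was read at 325 ± 57.4 CPM in astrocyte-like and 470 ± 108 CPM in microglia-like nuclei, against 752 ± 83.8 CPM in the mixed nuclei with few UMIs. A reference was therefore made for each mouse: the level in the mixed nuclei, scaled by the ratio of Slc17a7 in the class to Slc17a7 in the mixed nuclei. This reference was chosen after the levels had been seen. For the neuronal genes Gad1 and Grin1 the ratio of the measured level to it had medians between 0.799 and 1.39 over the 6 non-neuronal classes. The highest was that of Gad1 in OPC-like nuclei, which lay above the reference in 15 of 16 mice. Whether the mixed nuclei hold only free RNA was not tested.

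**Figure D2:**
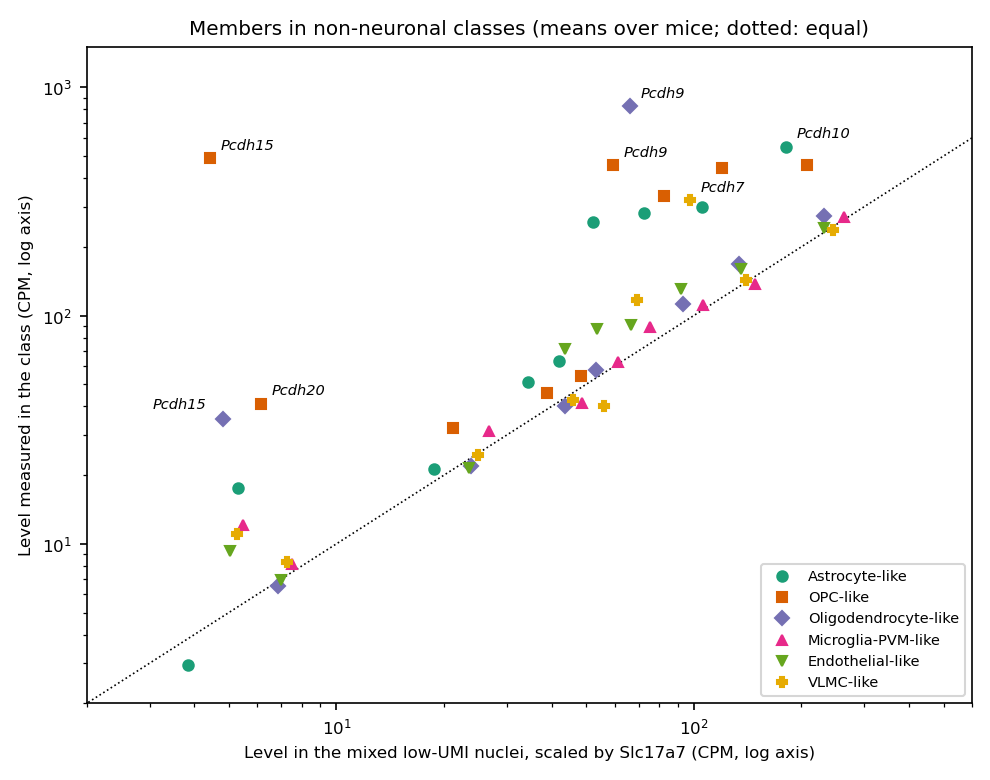
Measured level of the 9 protocadherins in the 6 non-neuronal classes (vertical log axis, CPM) against the free-RNA reference (horizontal log axis, CPM), as means over mice with 1 symbol per class; the dotted line marks equal values. Pcdh15 in OPC-like nuclei (490 CPM against a reference of 4.43 CPM) and Pcdh9 in oligodendrocyte-like nuclei (825 against 66.4 CPM) lie far above the line.

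Several members were above this reference in every mouse. In OPC-like nuclei the median ratio was 120 for Pcdh15, 7.9 for Pcdh9, 6.56 for Pcdh20, 4.18 for Pcdh7, 3.73 for Pcdh17 and 2.215 for Pcdh10. Oligodendrocyte-like nuclei had ratios of 11.9 for Pcdh9 and 7.42 for Pcdh15, but of 1.2 for Pcdh7, 1.19 for Pcdh10 and 1.12 for Pcdh17. In astrocyte-like nuclei Pcdh9 (4.94), Pcdh7 (3.68), Pcdh20 (2.96), Pcdh10 (2.95) and Pcdh17 (2.81) were above the reference in 16 of 16 mice. Microglia-like nuclei had medians between 0.751 (Pcdh19) and 1.14 (Pcdh8), so their values lay near the reference. In endothelial-like nuclei the highest medians were 1.69 for Pcdh19 (above in 14 of 16 mice) and 1.47 for Pcdh1 (15 of 16). VLMC-like (vascular leptomeningeal) nuclei had 3.52 for Pcdh7 (14 of 15) and at most 1.58 (Pcdh9) for the other members. In neither class was a member above the reference in every mouse. The astrocyte-like level of Pcdh15 had a median ratio of 0.672.

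Likeness to other genes was described by Pearson's r of class means of log2(CPM + 1) over the 20 classes, among 12567 candidate genes outside the protocadherins and cadherins. The points share libraries and depth, and no test was made. Pcdh17 was most like Mdga2 (r = 0.87), Nsmaf (0.84) and Col24a1 (0.81), and Pcdh8 was most like Zfp608 (0.87), Npas1 (0.87) and Dlx1 (0.86), the last a transcription factor of interneurons. Pcdh9 was closest to Dusp15 (0.78), Pcyt1b (0.77) and Dhodh (0.74), and Pcdh15 to Lmtk2 (0.80), Cntn4 (0.76) and Kif3a (0.73). For Pcdh7 the first was 4932441J04Rik (0.82), the gene on its other strand, followed by Aoc2 (0.72) and Npr2 (0.69). Pcdh1 was most like Dnajb5 (0.85), Extl1 (0.80) and Ubtd2 (0.79), and Pcdh10 like Lsamp (0.74), Dnase1l2 (0.71) and Tbcel (0.69). The remaining members were closest to Abhd13 (0.80), Nfs1 (0.76) and Yjefn3 (0.76) for Pcdh19 and to Dennd2a (0.84), Fyn (0.83) and Zfp608 (0.80) for Pcdh20. Between members, the highest r was 0.62, for Pcdh8 and Pcdh20, and the lowest was -0.61, for Pcdh1 with Pcdh8 and with Pcdh20.

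In 3xTg-AD alcohol mice versus WT control mice, 2 of 132 member tests were called (1.52%). This is near the share over all 131719 gene and class tests in this comparison, 1.04%. The 2 were a rise of Pcdh17 in L6 CT-like nuclei and a fall of Pcdh7 in oligodendrocyte-like nuclei. Neither call held under every alternative given below. Each test used edgeR's quasi-likelihood fit on counts summed per mouse and class, with Benjamini-Hochberg adjustment over all genes of the class, and a result was taken as called where its adjusted p did not exceed 0.05. Before adjustment, 44 of the 132 member tests had a p under 0.05, against 11.8% of all tests. On TMM-scaled CPM, where edgeR's normalization factors are applied, groups did not overlap in 22 of 132, with the 3xTg-AD alcohol mice above in 10 and below in 12, against 3.09% above, 3.42% below and 6.51% in either direction over all genes. On the CPM printed for single mice, which are scaled to the library total alone, they were above in 8 and below in 13. All such counts and their backgrounds are on TMM-scaled CPM unless stated, and can differ from the printed values where groups nearly touch. These 2 kinds of count were added after the calls had been seen. The 132 tests are not independent, since all classes come from the same mice.

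Pcdh17 in L6 CT-like nuclei had levels of 219, 407, 424 and 459 CPM in the 4 WT control mice and of 591, 641, 664 and 729 CPM in the 4 3xTg-AD alcohol mice. The groups did not overlap, and the lowest value was that of mouse 26. The means were 377 ± 107 and 656 ± 57.6 CPM (SD, n = 4), a log2 fold change of 0.78 ± 0.15 (SE, edgeR's quasi-likelihood test with Benjamini-Hochberg adjustment, adjusted p = 0.00277). In this class 1.43% of 9911 genes were called. The call held without each mouse in turn (log2 fold change 0.62 to 0.87) and without the 3 mice with high Gm42418, and it was lost when classes were set from the marker counts of single nuclei (0.62 ± 0.17, adjusted p = 0.0689 in edgeR's quasi-likelihood test with Benjamini-Hochberg adjustment).

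The means of both other groups lay between these for Pcdh17, and their mice overlapped the 3xTg-AD alcohol mice. WT alcohol mice had 460, 502, 574 and 647 CPM, and 3xTg-AD control mice had 447, 464, 484 and 614 CPM. On TMM-scaled CPM both groups lay above the WT control mice without overlap. On the printed CPM the WT alcohol mice did so too, while the 3xTg-AD control mice overlapped the WT control mice. Their log2 fold changes versus WT control mice were 0.47 ± 0.16 and 0.40 ± 0.16, neither called (adjusted p = 0.284 and 0.594, edgeR's quasi-likelihood test with Benjamini-Hochberg adjustment). All 3 comparisons share the WT control mice. The interaction of genotype and alcohol was -0.09 ± 0.22 (adjusted p = 1 in the same test), so the effect of alcohol was not shown to differ between genotypes.

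**Figure D3:**
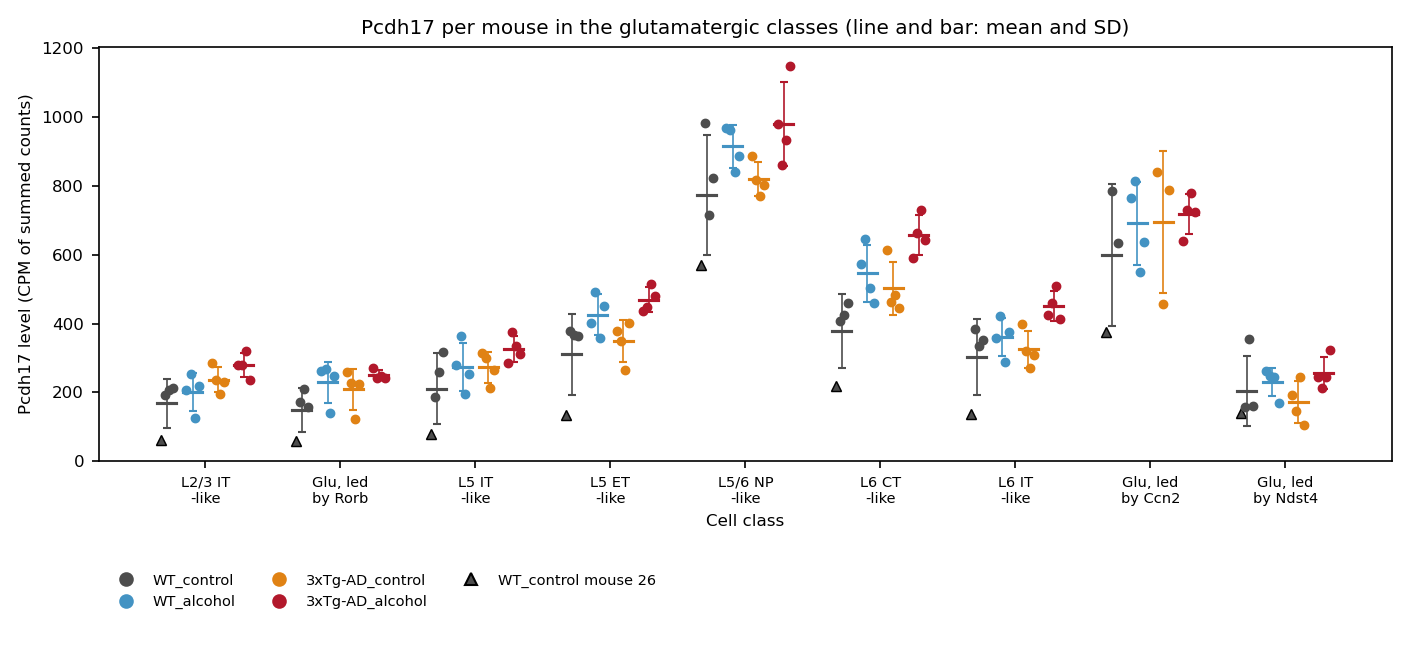
Pcdh17 level (vertical axis, CPM) in each mouse in the 9 glutamatergic classes, coloured by group, with a line at the group mean, a bar for the SD and a triangle for WT control mouse 26. In L6 CT-like nuclei the 3xTg-AD alcohol mice lie between 591 and 729 CPM and the WT control mice between 219 and 459 CPM.

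Markers of other cells were set beside the Pcdh17 result. In L6 CT-like nuclei the summed L6 CT markers were 1261 to 1667 CPM in WT control mice and 1535 to 1731 CPM in 3xTg-AD alcohol mice. The 6 L5/6 NP markers, whose class has the highest Pcdh17, summed to 12.5 to 88.7 and 48.1 to 105 CPM (means 48.7 ± 32.3 and 72.5 ± 24.4). The L6b markers summed to 5.21 to 37.5 and 26.5 to 36.3 CPM (means 16.4 ± 14.5 and 30.5 ± 4.17). By its markers, L6b was the nearest type to the Ccn2-led nuclei, which had the second highest Pcdh17 (680 CPM). Microglia markers did not overlap, with 36.5 to 64.1 against 67.7 to 81.6 CPM. Pcdh17 in microglia-like nuclei was at 137 ± 43.3 CPM, below its level in L6 CT-like nuclei of each of the 16 mice. The part of these markers in the result was not tested.

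In other classes Pcdh17 was mostly above 0 too, without a call by edgeR at the settings used throughout. Its log2 fold change was positive in 17 of 20 classes, with a median of 0.32. For all genes of this comparison, the median of the class medians was -0.00368. In L6 IT-like nuclei WT control mice had 138, 334, 352 and 384 CPM and 3xTg-AD alcohol mice 412, 424, 458 and 510 CPM, a log2 fold change of 0.61 ± 0.18 (adjusted p = 0.122, edgeR's quasi-likelihood test with Benjamini-Hochberg adjustment). The groups did not overlap in 6 of the 20 classes: L2/3 IT-like, L5 ET-like, L6 CT-like, L6 IT-like, Rorb-led and, on TMM-scaled CPM alone, Sst-like nuclei. With DESeq2 Pcdh17 was also called in L2/3 IT-like nuclei (0.76 ± 0.24, Benjamini-Hochberg adjusted p = 0.0428). With no filter on low counts, edgeR's quasi-likelihood test with Benjamini-Hochberg adjustment called it in L5 IT-like (0.71 ± 0.15, adjusted p = 0.000791) and L6 IT-like nuclei (0.65 ± 0.15, adjusted p = 0.00291), and in L6 IT-like nuclei also in 1 of the 16 fits without 1 mouse, that without WT control mouse 27 (0.78 ± 0.18, adjusted p = 0.0306). Without mouse 26 the median was 0.27, and without the 3 mice with high Gm42418 it was 0.36, with 17 of 18 classes above 0.

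**Figure D4:**
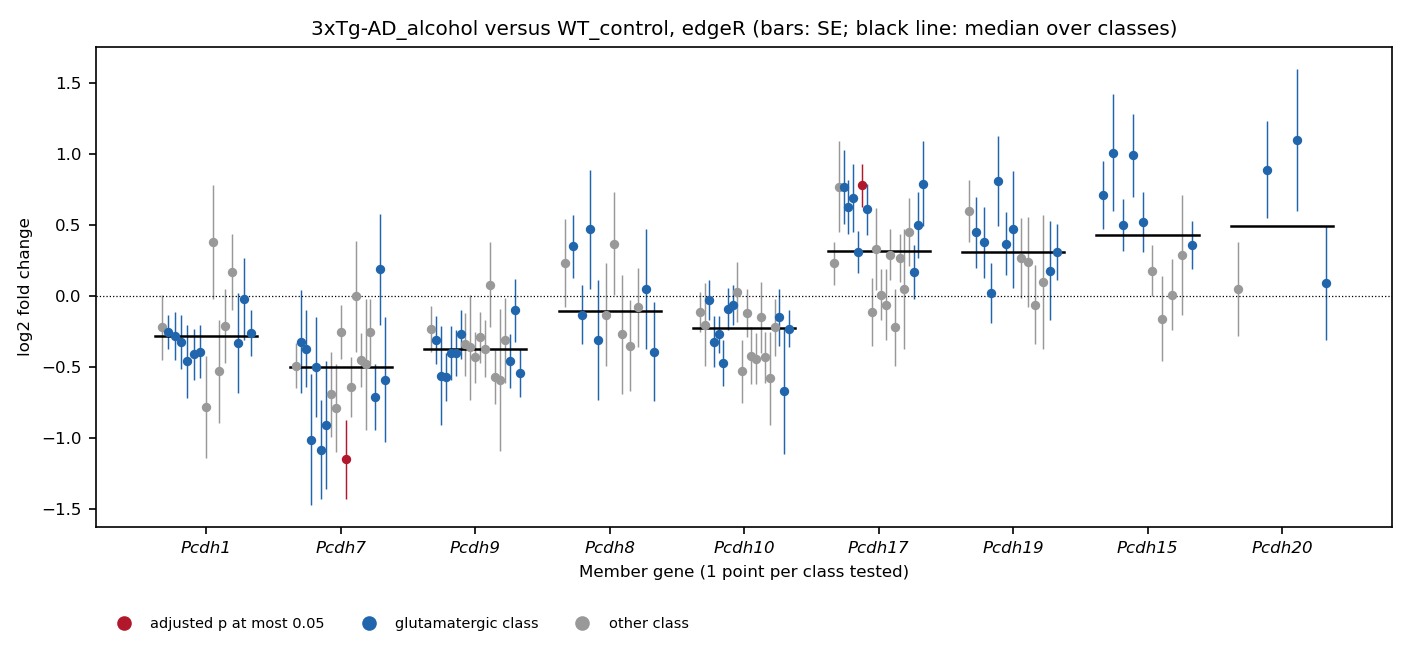
Log2 fold change (vertical axis, with SE) of each protocadherin in each class tested, in 3xTg-AD alcohol mice versus WT control mice; red points were called, blue points are glutamatergic and grey points other classes, and black lines are medians. Pcdh17 is above 0 in 17 of 20 classes and Pcdh7 below 0 in 18 of 19, with 1 red point each.

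Pcdh7 in oligodendrocyte-like nuclei had levels of 130, 154, 163 and 173 CPM in WT control mice and of 57.8, 64.7, 76.2 and 92.1 CPM in 3xTg-AD alcohol mice. The groups did not overlap, and each value rested on 4 to 39 UMIs. The means were 155 ± 18.5 and 72.7 ± 15 CPM (SD, n = 4), a log2 fold change of -1.15 ± 0.28 (edgeR's quasi-likelihood test with Benjamini-Hochberg adjustment, adjusted p = 0.0174), in a class where 0.425% of 3999 genes were called. WT alcohol mice had 110, 118, 127 and 162 CPM, and 3xTg-AD control mice had 77.6, 85.1, 93.5 and 107 CPM. Neither was called versus the WT control mice, with log2 fold changes of -0.35 ± 0.27 and -0.84 ± 0.29. The 3xTg-AD control mice did not overlap the WT control mice. Between the genotypes under alcohol the groups did not overlap either (-0.80 ± 0.29, adjusted p = 0.346, same test). The 3xTg-AD alcohol and 3xTg-AD control mice overlapped (-0.32 ± 0.33, adjusted p = 0.99, same test).

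The Pcdh7 call held in 12 of the 16 fits without 1 mouse and was lost without WT control mouse 26 (-1.06 ± 0.32, adjusted p = 0.147), WT control mouse 27 (-1.06, 0.0716), and 3xTg-AD alcohol mouse 31 (-1.03, 0.133) and 34 (-1.11, 0.1), all by edgeR's quasi-likelihood test with Benjamini-Hochberg adjustment. Without the 3 mice with high Gm42418 the log2 fold change was -0.84 ± 0.36 (adjusted p = 0.669, same test). With the study's tool DESeq2 it was -1.16 ± 0.33 (Benjamini-Hochberg adjusted p = 0.109). By edgeR's quasi-likelihood test with Benjamini-Hochberg adjustment it was also lost with no filter on low counts (-1.14 ± 0.30, adjusted p = 0.0687), and it held with classes from marker counts (-0.85 ± 0.21, adjusted p = 0.0491), the setting that ended the call of Pcdh17. The measured level was also near the free-RNA reference, which was 111 ± 53.4 CPM in WT control mice and 77.5 ± 3.94 CPM in 3xTg-AD alcohol mice. The part of free RNA in this difference was not tested.

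**Figure D5:**
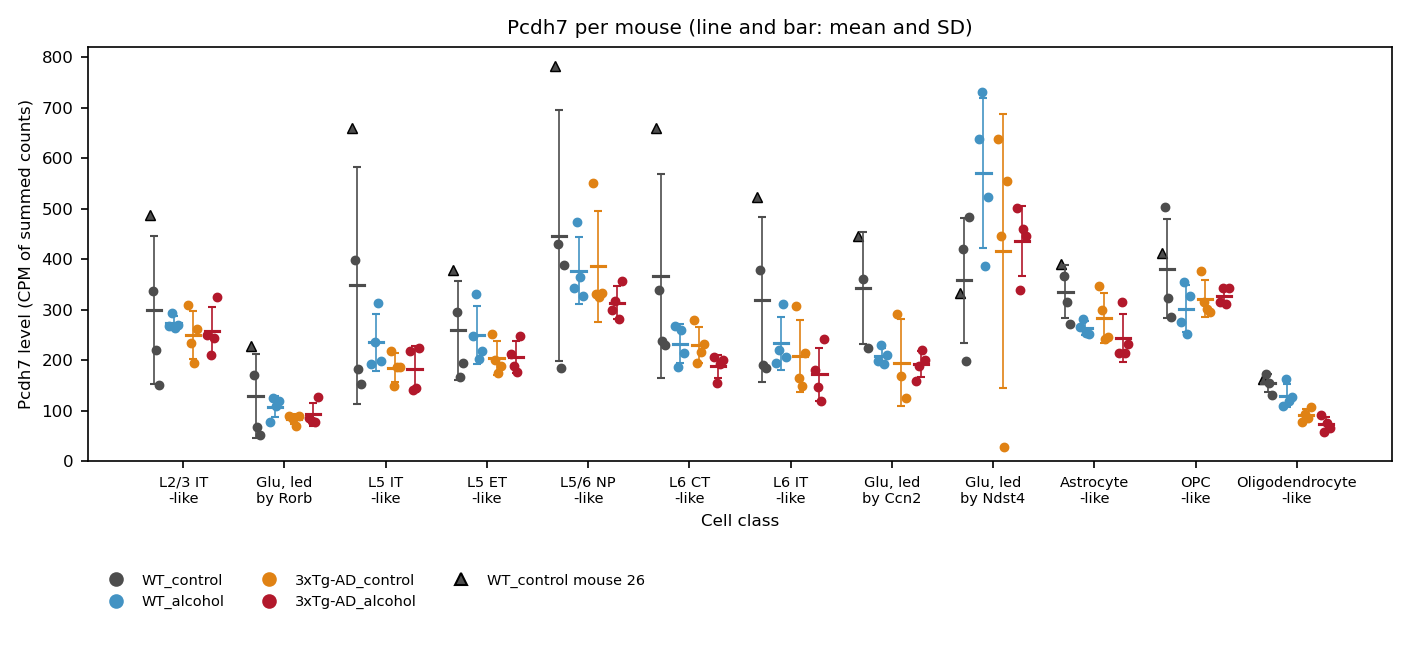
Pcdh7 level (vertical axis, CPM) in each mouse in the 9 glutamatergic classes and in astrocyte-like, OPC-like and oligodendrocyte-like nuclei, coloured by group, with a line at the group mean, a bar for the SD and a triangle for WT control mouse 26. In oligodendrocyte-like nuclei WT control mice lie between 130 and 173 CPM and 3xTg-AD alcohol mice between 57.8 and 92.1 CPM.

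Elsewhere Pcdh7, Pcdh9 and Pcdh10 were mostly below 0 in this comparison, and this moved with the 3 mice. With all mice the median log2 fold change was -0.50 for Pcdh7 (18 of 19 classes below 0), -0.37 for Pcdh9 (18 of 19) and -0.23 for Pcdh10 (19 of 20). Without the 3 mice with high Gm42418, which leaves 2 WT control mice, these medians were 0.11 (7 of 17 below 0), -0.08 (10 of 17) and -0.04 (9 of 18). By edgeR's quasi-likelihood test with Benjamini-Hochberg adjustment, Pcdh9 in L5 IT-like nuclei was called with no filter on low counts (-0.54, adjusted p = 0.0276). It was also called without WT control mouse 28 (-0.69, 0.0465) or 36 (-0.68, 0.0482), and in Rorb-led nuclei without mouse 28 (-0.69, 0.0278). Without mouse 36 Pcdh7 was called in astrocyte-like (-0.62, 0.0471) and Ccn2-led nuclei (-1.13, 0.0131). Over all nuclei the 3 mice had 278 to 410 CPM of Pcdh7 against 166 to 267 CPM in the other 13, and 308 to 342 against 174 to 254 CPM of Pcdh9. Pcdh8 went the other way, with 16 to 19.9 CPM in the 3 mice against 20.1 to 42.6 CPM in the 13. In L6 CT-like nuclei Pcdh7 was at 230, 238, 339 and 661 CPM in WT control mice, with mouse 26 the highest of all 16 mice.

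WT control mouse 26, singled out after its values were seen, had the highest Pcdh7 of all mice in 8 of 9 glutamatergic classes. It had the lowest Pcdh17 in 8 of 9, the lowest Pcdh15 in 6 of 6 and the lowest Pcdh19 in 6 of the 8 glutamatergic classes where each was tested. Over all classes tested it had the highest Pcdh7 in 11 of 19, the lowest Pcdh17 in 10 of 20, the lowest Pcdh15 in 6 of 10 and the lowest Pcdh19 in 9 of 13. Its Gm42418 was the highest of the 16, at 29046 CPM.

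Pcdh15 and Pcdh19 were mostly above 0 in 3xTg-AD alcohol mice versus WT control mice, with no call. The median log2 fold change was 0.43 for Pcdh15 (9 of 10 classes above 0) and 0.31 for Pcdh19 (12 of 13). In L6 CT-like nuclei Pcdh15 was at 6.23, 7.82, 16.1 and 24.4 CPM in WT control mice and 23.4, 24.6, 26.4 and 30.4 CPM in 3xTg-AD alcohol mice (log2 fold change 0.99 ± 0.29, adjusted p = 0.0784, edgeR's quasi-likelihood test with Benjamini-Hochberg adjustment), and it was called in 1 of the 16 fits without 1 mouse, that without WT control mouse 28 (1.2 ± 0.31, adjusted p = 0.0348, same test), while without WT control mouse 26 it was 0.77 (adjusted p = 0.332, same test). Without the 3 mice with high Gm42418 the medians were 0.39 and -0.02, and Pcdh15 was then called in L2/3 IT-like nuclei (0.68 ± 0.16, adjusted p = 0.0205, same test). Pcdh15 was also called there without WT control mouse 27 alone (0.98 ± 0.22, adjusted p = 0.018, same test). Its level in OPC-like nuclei, where it is highest, was 460 ± 81.4 CPM in WT control mice and 527 ± 108 CPM in 3xTg-AD alcohol mice, which overlap.

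Pcdh1, Pcdh8 and Pcdh20 had no call either. The medians were -0.28 for Pcdh1 (13 of 15 classes below 0), -0.10 for Pcdh8 (7 of 12 below 0) and 0.49 for Pcdh20 (4 of 4 above 0). Those 4 classes were astrocyte-like, L2/3 IT-like, L5 ET-like and Rorb-led nuclei. The Sncg-like and OPC-like nuclei, where Pcdh20 has its highest means, were not among them. Pcdh8 had no p under 0.05 in any class. Without the 3 mice the median of Pcdh1 was again -0.28, in 14 classes, and no such value is given for Pcdh8 or Pcdh20.

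In the other comparisons none of the 132 member tests was called by edgeR's quasi-likelihood test. For 3xTg-AD control versus WT control mice, 13 had an unadjusted p under 0.05, against backgrounds of 0.162% called and 6.22% with such a p. No overlap was seen in 2 tests above and 3 below (1 and 3 on the printed CPM, where Pcdh17 in L6 CT-like nuclei overlaps), where all genes gave 1.76% above, 1.78% below and 3.53% in either direction. The corresponding values were 25 of 132 (backgrounds 0.0266% and 8.64%) for WT alcohol mice versus WT control mice, where Pcdh19 in L5/6 NP-like nuclei had the smallest adjusted p (log2 fold change 1.22 ± 0.31, adjusted p = 0.138). Groups did not overlap there in 3 tests above and 3 below (3 and 4 on the printed CPM), where all genes gave 2.86%, 2.51% and 5.37% in either direction. Also in WT alcohol versus WT control mice, Pcdh9 was below 0 in 19 of 19 classes (median -0.40), and in oligodendrocyte-like nuclei it was at 990 ± 178 CPM in WT control and 640 ± 60.9 CPM in WT alcohol mice (-0.65 ± 0.18, adjusted p = 0.222). Without the 3 mice with high Gm42418 the median of Pcdh9 in WT alcohol versus WT control mice was -0.07, with 10 of 17 classes below 0. No such value is given for Pcdh19. With DESeq2 none of the member tests of these comparisons was called.

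The effect of alcohol within 3xTg-AD mice was also without a call (background 0.166%), with 17 of 132 unadjusted p under 0.05 against 7.93% of all tests. The groups did not overlap in 6 tests above and 4 below (11 and 4 on the printed CPM), where all genes gave 2.22% above, 2.57% below and 4.8% in either direction. Pcdh17 was above 0 in 20 of 20 classes (median 0.31) and Pcdh15 in 10 of 10 (median 0.49). In L6 IT-like nuclei Pcdh15 was at 56.9, 71.1, 72 and 86 CPM in 3xTg-AD control mice and 101, 117, 126 and 130 CPM in 3xTg-AD alcohol mice. The groups did not overlap, and the log2 fold change was 0.73 ± 0.20 (adjusted p = 0.141, edgeR's quasi-likelihood test with Benjamini-Hochberg adjustment). The smallest adjusted p of all members in this comparison was also of Pcdh15 (0.0955, same test). In L6 CT-like nuclei its log2 fold change was 0.97 to 1.18 with 1 mouse left out (adjusted p 0.0683 to 0.28, same test). Without the 3 mice with high Gm42418, 5 member tests were called here: Pcdh15 in L2/3 IT-like (0.71, adjusted p = 0.006) and L6 IT-like nuclei (0.89, 0.004), and Pcdh17 in L5 ET-like (0.54, 0.0399), L6 CT-like (0.54, 0.0173) and L6 IT-like nuclei (0.66, 0.00602), all by the same test and all above 0. They were 5 of 129 member tests, and with those mice left out 0.767% of all 137390 gene and class tests of this comparison were called. Of the 3 mice, only 3xTg-AD control mouse 12 belongs to a group of this comparison, and the others enter it through the shared spread.

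For 3xTg-AD alcohol versus WT alcohol mice, 9 of 132 member tests had an unadjusted p under 0.05 (backgrounds 0.378% called and 8.6%). No overlap was seen in 3 tests above and 7 below (1 and 7 on the printed CPM), where all genes gave 2.68% above, 2.82% below and 5.49% in either direction. The smallest adjusted p was that of Pcdh1 in L6 IT-like nuclei, with 45.8 to 63.3 CPM in 3xTg-AD and 71 to 115 CPM in WT mice (log2 fold change -0.59 ± 0.17, adjusted p = 0.149, edgeR's quasi-likelihood test with Benjamini-Hochberg adjustment). The interaction had 5 of 132 unadjusted p under 0.05 (backgrounds 0.00152% and 4.14%), so no member was shown to respond to alcohol differently in the 2 genotypes.

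Related genes were counted from lists chosen for their roles. The WAVE complex list (11 genes, 155 gene and class tests) had 0 calls in 3xTg-AD alcohol mice versus WT control mice by edgeR's quasi-likelihood test, 18 unadjusted p under 0.05 and a median log2 fold change of -0.10, in a comparison where 1.04% of all tests were called and 11.8% had such a p. Of the other non-clustered protocadherins, 2 of 3 were in the table, with 0 calls and 2 unadjusted p under 0.05 in 12 tests. Among 12 partners and effectors (187 tests, 21 unadjusted p under 0.05), 6 tests were called below 0 and 0 above, and all 6 were of Cdh2, which encodes N-cadherin, the classical cadherin with which Pcdh8 and Pcdh19 interact. Cdh2 fell from 416 ± 181 to 49.5 ± 9.6 CPM in oligodendrocyte-like nuclei (log2 fold change -3.04 ± 0.28, adjusted p = 1.25e-15) and from 167 ± 35 to 59 ± 22.3 CPM in Pvalb-like nuclei (-1.56 ± 0.23, adjusted p = 2.26e-05). It also fell in L6 IT-like (-0.87), Sst-like (-0.86), L5 IT-like (-0.63) and L2/3 IT-like nuclei (-0.50). These values include WT control mice 26 and 27, which have high Gm42418, and no value of Cdh2 without them is given. The list of partners and effectors had 7 calls below 0 in 3xTg-AD control versus WT control mice (0.162% of all tests called in either direction) and 0 in WT alcohol versus WT control mice (0.0266%), comparisons that share the WT control mice. In 3xTg-AD alcohol versus WT alcohol mice, which does not use them as a group, it had 3 calls below 0 and 0 above (0.378%).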

How the data were processed

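Nuclei of snap-frozen medial PFC were profiled with 10x Chromium 3' chemistry. The authors aligned reads to mm10 with Cell Ranger 6.1.1 and STAR and deposited raw UMI counts per gene and nucleus, which were used as deposited. How nuclei were filtered and whether intronic reads were counted are not given in the sources used here.

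Nuclei were clustered with scanpy 1.11.5 (2000 variable genes without protocadherin or cadherin genes, 30 principal components, 20 neighbours, Leiden resolution 1.5) and named from fixed markers. A class entered a test with at least 10 nuclei in each of at least 3 mice per group. Counts were summed per mouse and class and tested across all 16 mice with edgeR 4.0.16 (R 4.3.3; TMM, low-count filter, robust quasi-likelihood test, a mean per group), with Benjamini-Hochberg adjustment over all genes of a class and calls at an adjusted p of at most 0.05. Neighbouring classes were compared by exact sign-flip permutation of log2(CPM + 1). The SE beside an edgeR log2 fold change was derived from the fold change and the F statistic of its test, and is unreliable for fold changes near 0. DESeq2 1.42.0 was an alternative. The automatic doublet threshold had not worked, so no doublets were removed, and an alternative left out the 6% of nuclei with the highest scores.

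The members, gene lists and alternatives were chosen with earlier results of these data known, and those named as added were chosen after the values were seen. The text names the 9 members throughout, the genes of each list that were called in 3xTg-AD alcohol mice versus WT control mice (at most 6 per list), and for each member the 3 genes of the most similar level over classes. Simulated data took means and library sizes from these libraries but gave every gene the same spread. There the test recovered 46 of 67 genes changed 2-fold in L2/3 IT-like nuclei (12591 genes) and 27 of 67 in OPC-like nuclei (4155 genes). Of genes changed 1.5-fold it recovered 9 of 67 and 2 of 67, so smaller changes, above all in rare classes, can be missed. Genes with more spread between mice than was simulated were not covered.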

Additional observations from a re-analysis of the deposited data

Results flagged for a closer look

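Of 171 sets of 4 mice with a protocadherin in a class, 11 held 1 mouse far from the others by Dixon's test at the 95% level, which chance alone flags in about 1 in 20 sets, or 8.6 here. WT control mouse 26 accounted for 3 of the 11. Its Pcdh17 was 62.3 CPM in L2/3 IT-like nuclei, against 191.6 to 211.7 CPM in the other WT control mice, and 135 CPM in L5 ET-like nuclei, against 363 to 379 CPM. Its Pcdh9 in OPC-like nuclei was 661 CPM, against 466 to 498 CPM. The mouse also had the highest Gm42418 of the 16, and the part of that in these values was not tested.

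Among the other WT control mice, Pcdh10 was at 461 CPM in oligodendrocyte-like nuclei of mouse 28 (others 297 to 308 CPM), and at 1078 CPM in Sst-like nuclei of mouse 27 (others 397 to 453 CPM), the latter from 15 UMIs in 10 nuclei of a mouse with 1200 of 1304 GABAergic nuclei unnamed. Pcdh17 in Ndst4-led nuclei of mouse 28 was 356 CPM, against 140.3 to 159.6 CPM. In WT alcohol mice, mouse 17 was low, with Pcdh15 at 84.5 CPM in L6 IT-like nuclei (others 102 to 105 CPM) and Pcdh17 at 140.0 CPM in Rorb-led nuclei (others 248 to 267 CPM). Pcdh7 in Pvalb-like nuclei of 3xTg-AD control mouse 12, another mouse with high Gm42418, was 243 CPM, against 167 to 175 CPM. In 3xTg-AD alcohol mice, Pcdh10 was 261 CPM in Pvalb-like nuclei of mouse 4 (others 316 to 319 CPM) and Pcdh9 was 139 CPM in L5 IT-like nuclei of mouse 33 (others 174 to 180 CPM).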

How the results depend on the processing

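In 3xTg-AD alcohol mice versus WT control mice, the 2 member calls became 4 with no filter on low counts (180 tests; 0.66% of all gene and class tests called), 1 with classes from marker counts (102 tests; 0.851%) and 1 to 6 with 1 mouse left out (0.508% to 1.25%). There were 6 calls without WT control mouse 36 (1.07% of all tests), 5 without WT control mouse 28 (0.91%), and 1 without WT control mouse 26 (0.641%) or without 3xTg-AD alcohol mouse 31 (0.684%) or 34 (0.673%). In 3xTg-AD alcohol mice versus 3xTg-AD control mice, the count of 0 became 1 with no filter (0.153% of all tests), 5 without the 3 mice with the highest Gm42418 (0.767%), and 0 to 1 with 1 mouse left out (1 without WT control mouse 26, at 0.2%, or 3xTg-AD control mouse 12, at 0.39%). The remaining 4 comparisons had 0 calls under every alternative run. The 15 neighbour pairs of classes became 10 to 18 under the alternatives, among them 10 of 135 with classes from marker counts and 15 to 17 with 1 mouse left out. With classes from marker counts the highest class became L5/6 NP-like for Pcdh1 and Pcdh7, L6 CT-like for Pcdh9, endothelial-like for Pcdh19 and OPC-like for Pcdh20. That of Pcdh7 also became VLMC-like on TMM-scaled levels and Sst-like without WT alcohol mouse 7.

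Of the single values examined because their unadjusted p was under 0.05, 6 changed sign, all without the 3 mice with the highest Gm42418. They were those of Pcdh7 in L5 IT-like nuclei (0.27 in 3xTg-AD alcohol and 0.09 in 3xTg-AD control mice versus WT control mice), in microglia-like nuclei (0.36, 3xTg-AD alcohol versus WT control mice), in L6 CT-like nuclei (0.07) and in OPC-like nuclei (0.04, both WT alcohol mice versus WT control mice), and that of Pcdh9 in L5/6 NP-like nuclei (0.06, 3xTg-AD alcohol versus WT control mice). Why they changed was not tested. Over all alternatives 2618 such values kept their direction and side of the threshold, 21 passed it newly and 8 no longer passed it. No paired analysis was possible because no mouse number occurs in more than 1 group. With 4 mice per group and classes of few UMIs, low members such as Pcdh20 could be tested in 4 classes.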
